A study of Homo sapiens with 8 samples.

Results

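The 10 genes described here encode proteins that carry copper into, through and out of the cell or that use it as a cofactor. They were chosen by name and read from the table of normalized counts: SLC31A1, SLC31A2 and STEAP3 on the side of uptake, ATP7A and ATP7B as exporters, ATOX1, CCS and COX17 as copper chaperones, SOD1 as a copper enzyme, and COMMD1 as a trafficking factor. All 10 were among the 28395 genes of the table. All 10 also passed the filter on low values, a normalized read count of at least 10 in at least 2 libraries, as did 14040 genes in all. All libraries came from A-498, an established line of human kidney cancer cells, grown for 1 day to a culture that was not confluent. The wild type control lines, control line 1 and control line 2, carried non-targeting sgRNA-1 and sgRNA-2 (sgRNA, single guide RNA). The lines with the genotype label ANXA4 knockout (KO) carried ANXA4 sgRNA-1 or ANXA4 sgRNA-2 and are called KO guide 1 and KO guide 2. Each of the 4 lines gave 2 polyA RNA-seq libraries, labelled replicate 1 and replicate 2. Each sgRNA was represented by 1 line, so a guide and a line cannot be told apart. The labels did not say whether replicates were separate cultures, so p-values measure the spread between these libraries, which may be technical.

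Copper is needed by a small set of enzymes and is toxic when free, so cells pass it from protein to protein. A membrane channel, CTR1 (encoded by SLC31A1), takes up reduced copper. Chaperones then hand it to the Golgi pumps ATP7A and ATP7B, to the cytosolic superoxide dismutase SOD1 and to cytochrome c oxidase in mitochondria. Platinum drugs such as cisplatin bind some of the same proteins: CTR1 has been linked to their uptake, ATP7A and ATP7B to their export, and annexin A4, the protein encoded by ANXA4, to platinum resistance through ATP7A. The labels name no treatment with platinum or copper.

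The libraries held between 15784890 and 22631588 reads. Reads of ANXA4, the targeted gene, came to normalized counts of 2821 and 3614 in control line 1, 3858 and 6773 in control line 2, 236 and 234 in KO guide 1, and 3433 and 4142 in KO guide 2. It was thus low only in the line labelled KO guide 1, where it fell (log2 difference -4.10, SE 0.22, limma adjusted p 5.88e-05) against the control lines. In the line labelled KO guide 2 it lay within the control range (log2 difference -0.10, SE 0.22, limma adjusted p 0.818). Between both control lines ANXA4 was called with the replicate block (limma adjusted p 0.014) and not without it (0.22). Every direction given for that line therefore refers to the label. Of 11 markers of kidney cancer cells, 9 passed the filter on low values, with PAX8 between 2987 and 4476 and PAX2 between 232 and 412 normalized read counts. LRP2 and NDUFA4L2 had at most 1 and 8 reads in a library and CA9 reached 24.8 normalized read counts. Of 12 markers of other cell types, 11 failed the filter on low values, and CD68, which epithelial cells also express, was the exception.

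Per kilobase of exon (union of GENCODE v29 exons), SOD1 was by far the most abundant of the 10 transcripts, at 3334 normalized read counts per kilobase as a mean of the 8 libraries. STEAP3 followed at 427, SLC31A1 at 303, COX17 at 259.8 and ATOX1 at 183. COMMD1 (129), CCS (100.2) and SLC31A2 (70.1) were lower, and the exporters ATP7A (28.5) and ATP7B (12) were the lowest. The order rests on this length, 5.24 kb for ATOX1 and 2.17 kb for COX17, which takes in every annotated exon. The length of the expressed transcripts was not determined, so another length could change the order. This order also did not hold in every line. In control line 2 COX17 (292) lay above SLC31A1 (279), and in the line labelled KO guide 2 both ATOX1 (233) and COX17 (215) lay above SLC31A1 (206), differences smaller than the spread between replicates. Across the 8 libraries the highest value of a member was 1.24 times (CCS) to 2.63 times (ATP7A) its lowest. The median of this ratio was 1.997 over the 10 members and 1.82 over all tested genes.

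**Figure D1:**
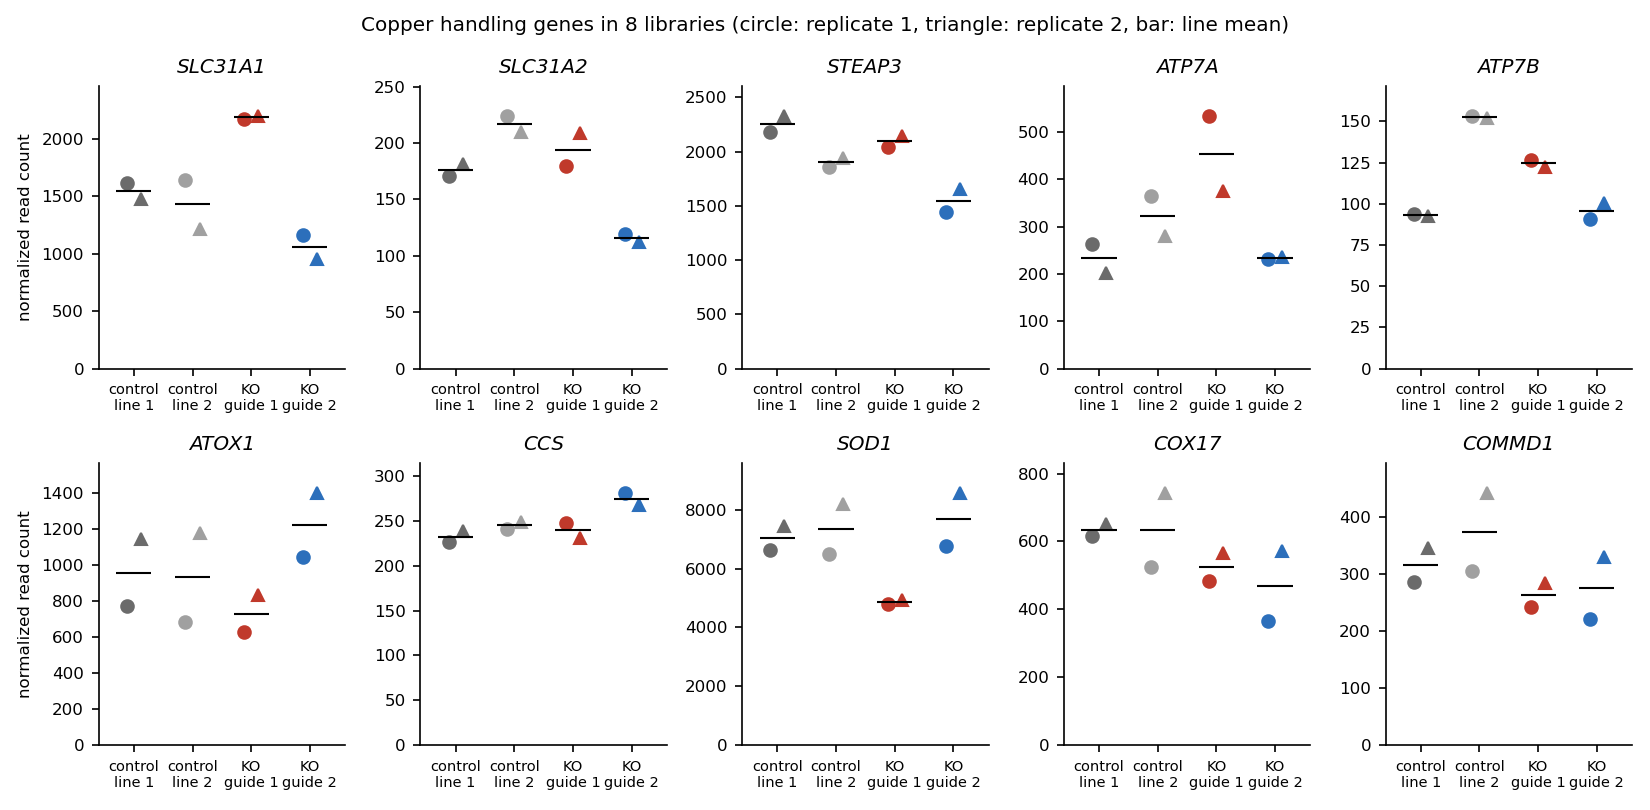
Normalized read count of each of the 10 genes (vertical axes, each from 0) in the 4 lines (horizontal axes), with a circle for replicate 1, a triangle for replicate 2 and a bar for the mean of the line. SLC31A1 and ATP7A are highest in the line labelled KO guide 1, SLC31A2 and STEAP3 lowest in the line labelled KO guide 2, SOD1 lowest in the line labelled KO guide 1, and ATOX1 and COMMD1 higher in replicate 2 of every line.

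The question of the series was whether the KO-labelled lines differ from the control lines. None of the 10 genes was called between the 4 KO-labelled and the 4 control libraries (limma, adjusted p under 0.05), against 0.235% of all tested genes (0.264% with the replicate number as a block, again with 0 members). Their adjusted p-values lay between 0.603 and 0.989. At an unadjusted p under 0.05 (limma) the count was also 0, beside 1615 of all 14040 tested genes. Neither edgeR nor DESeq2 called a member, beside 186 and 850 of all tested genes. The log2 differences ran from -0.38 (SLC31A2, SE 0.24) to 0.25 (ATP7A, SE 0.31), with a median of -0.17 beside 0.00073 over all tested genes. In 0 of the 10 did the KO-labelled libraries lie wholly on 1 side of the control libraries, which 10.6% of all tested genes did. Permuting the arms over the 8 libraries (exact permutation test, two-sided) gave p from 0.114 (COX17 and COMMD1) to 1 (ATOX1) for the 10 genes, where 0.0286 was the smallest possible. This permutation treated the libraries as independent and took no account of the lines. ANXA4 itself was not called between the arms (log2 difference -2.10, SE 0.90, limma adjusted p 0.407, exact permutation p 0.229). Its RNA was low only in KO guide 1, so this comparison cannot decide whether the 10 genes change with loss of ANXA4. The protein was not measured, so these counts cannot tell whether KO guide 2 kept or lost it. In bulk libraries such as these, a lower level in fewer cells and less RNA per cell cannot be told apart.

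SLC31A1 (chr9:113221544-113264492, RefSeq GRCh38.p14) encodes the uptake channel CTR1. It was read at 1614 and 1474 in control line 1, 1641 and 1219 in control line 2, 2179 and 2199 in KO guide 1, and 1163 and 954 in KO guide 2, as normalized counts. Both libraries of KO guide 1 were above all 4 control libraries, and both of KO guide 2 were below them. Its means were 2189 ± 14.4 in KO guide 1 and 1059 ± 148 in KO guide 2, against 1544 ± 98.9 and 1429.9 ± 298 in control lines 1 and 2 (SD, n = 2 each). Set against the control lines, the log2 difference was 0.57 (SE 0.15, limma adjusted p 0.0559) for KO guide 1 and -0.49 (SE 0.15, limma adjusted p 0.0695) for KO guide 2. Both were called in the fit blocked on the replicate number (limma adjusted p 0.00247 and 0.00504). These comparisons share their 4 control libraries. SLC31A1 fell in KO guide 2 relative to KO guide 1 (log2 difference -1.05, SE 0.17, limma adjusted p 0.0124), the largest difference among the members in any of the 6 comparisons. This call was lost without replicate 1 or 2 of KO guide 1 (limma adjusted p 0.0821 and 0.112) or replicate 2 of KO guide 2 (0.054). The call of KO guide 1 was gained without replicate 1 of control line 2 (0.0283) or without either replicate of KO guide 2 (0.0402 and 0.0401). That of KO guide 2 was gained without replicate 2 of control line 2 (0.0335).

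SLC31A2 (chr9:113151007-113164140), which encodes the related protein CTR2 of internal membranes, stood at 171 and 181 in control line 1, 224 and 209.6 in control line 2, 179 and 208 in KO guide 1, and 119 and 112 in KO guide 2. Only the line labelled KO guide 2 stood apart, with both libraries below the 6 others. SLC31A2 fell in that line against the control lines (log2 difference -0.75, SE 0.15, limma adjusted p 0.0159) and against KO guide 1 (log2 difference -0.74, SE 0.18, limma adjusted p 0.043). KO guide 1 lay within the control range. The call against the controls was lost without replicate 1 or 2 of control line 1 (limma adjusted p 0.0502 and 0.0584) and without replicate 1 or 2 of KO guide 2 (0.0513 and 0.0674). The call against KO guide 1 was lost in each of the 8 fits that left out 1 library, with limma adjusted p-values from 0.0569 (without replicate 2 of control line 2) to 0.263 (without replicate 2 of KO guide 1).

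STEAP3 (chr2:119223834-119265652), a metalloreductase of endosomes that reduces iron and copper, had 2183 and 2327 in control line 1, 1862 and 1943 in control line 2, 2042 and 2146 in KO guide 1, and 1439.6 and 1657 in KO guide 2. It too was lowest in both libraries of KO guide 2, where it fell against the control lines (log2 difference -0.42, SE 0.11, limma adjusted p 0.0427). That call held in 1 of the 8 fits that left out a library, the one without replicate 2 of KO guide 2, and the limma adjusted p of the others ran from 0.0728 (without replicate 1 of control line 2) to 0.169 (without replicate 1 of KO guide 2). The edgeR quasi-likelihood test gave an adjusted p of 0.0514. Against KO guide 1 the difference was -0.44 (SE 0.13, limma adjusted p 0.0758), called with the replicate block (0.00946).

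The chromosomal neighbours of these 3 genes were also lower in KO guide 2. Of the 50 tested genes nearest to SLC31A1, 25 on each side, the median log2 difference of KO guide 2 from the control lines was -0.45, and 44 of the 50 were below 0. The neighbours of SLC31A2, which lies near SLC31A1 on chromosome 9, had a median of -0.42, and those of STEAP3 one of -0.21. When the running median of 51 neighbouring genes was subtracted in each library (gene-order windows), the differences of KO guide 2 from the control lines became -0.029 for SLC31A1, -0.30 for SLC31A2 and -0.15 for STEAP3, with limma adjusted p-values of 0.922, 0.293 and 0.443. In KO guide 1, where the neighbours of SLC31A1 had a median of -0.0065, the SLC31A1 difference was 0.57 after the same step and was called (0.0323). The part of the neighbourhood in these differences was not tested further.

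**Figure D2:**
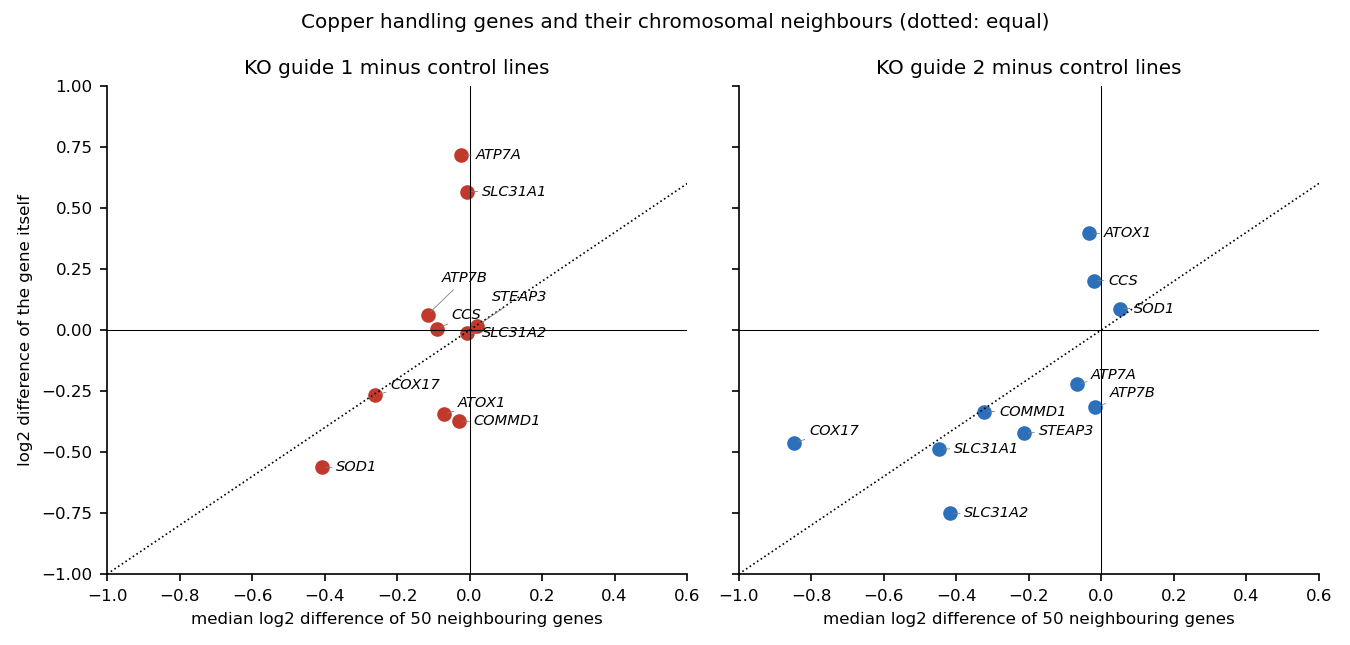
Log2 difference of each gene from the control lines (vertical axis) against the median log2 difference of its 50 nearest tested genes (horizontal axis), for KO guide 1 on the left and KO guide 2 on the right, with a dotted line where both are equal. SLC31A1 and ATP7A lie at 0.57 and 0.72 above neighbours near 0 in KO guide 1, whereas SLC31A1 in KO guide 2 (-0.49) and SOD1 in KO guide 1 (-0.56) lie with neighbours that are also lower (-0.45 and -0.41).

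ATP7A (chrX:77910693-78050395) encodes the pump that loads copper onto secreted enzymes in the Golgi and exports it at the plasma membrane. ATP7A was read at 264 and 203 in control line 1, 365 and 279.8 in control line 2, 533 and 376 in KO guide 1, and 231 and 235 in KO guide 2. Both libraries of KO guide 1 were above the 4 control libraries, and KO guide 2 lay within the control range. ATP7A fell in KO guide 2 relative to KO guide 1 (log2 difference -0.94, SE 0.23, limma adjusted p 0.0446). This call held only without replicate 1 or 2 of control line 2 (0.044 and 0.0433) among the fits that left out a library, and the limma adjusted p of the others ran from 0.0685 (without replicate 2 of control line 1) to 0.24 (without replicate 1 of KO guide 1). It was also lost with equal totals (0.0588). Against the control lines the log2 difference was 0.72 (SE 0.20, limma adjusted p 0.064) for KO guide 1, called with the replicate block (0.00277), and -0.22 (SE 0.20, limma adjusted p 0.532) for KO guide 2. With gene-order windows the differences were 0.71 against the control lines and -0.84 for KO guide 2 against KO guide 1 (0.0832 and 0.0921).

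ATP7B (chr13:51932669-52012132), the exporter best known from liver and the gene mutated in Wilson disease, had 93.8 and 92.6 in control line 1, 153 and 152 in control line 2, 127 and 122 in KO guide 1, and 91.0 and 100.2 in KO guide 2, from 83 to 178 reads per library. The control lines, which carry no knockout, were farther apart than any other pair of lines: 93.2 ± 0.862 against 152 ± 0.94 (SD, n = 2 each), with the means of both KO-labelled lines between them. The log2 difference of control line 2 from control line 1 was 0.70 (SE 0.19, limma adjusted p 0.0955), called with the replicate block (0.0238). No member was called between the control lines without the block, against 2.13% of all tested genes, and 1 of 10 was called with it, against 12.5%.

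The promoters of SLC31A1 and ATP7A are shown because both transcripts were highest in KO guide 1. The 250 bases upstream of each start (RefSeq GRCh38.p14, 5′ to 3′, plus strand for both genes) were searched on both strands for GGGCGG, the box bound by Sp1, a factor linked to SLC31A1 expression, for the core of the metal response element (TGCACNC or TGCGCNC), and for the palindrome CACGTG, an E-box. Capitals mark the matches.
SLC31A1 chr9:113221294-113221543: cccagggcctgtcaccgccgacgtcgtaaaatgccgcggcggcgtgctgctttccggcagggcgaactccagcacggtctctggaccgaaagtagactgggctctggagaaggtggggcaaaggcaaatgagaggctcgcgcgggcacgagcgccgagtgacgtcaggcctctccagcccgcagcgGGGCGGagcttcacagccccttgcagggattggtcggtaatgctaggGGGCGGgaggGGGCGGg
ATP7A chrX:77910443-77910692: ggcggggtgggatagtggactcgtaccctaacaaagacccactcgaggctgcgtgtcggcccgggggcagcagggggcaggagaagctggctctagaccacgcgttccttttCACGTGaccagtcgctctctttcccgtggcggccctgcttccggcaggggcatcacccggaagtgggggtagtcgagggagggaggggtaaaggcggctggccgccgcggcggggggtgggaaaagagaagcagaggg
The SLC31A1 window held 3 GGGCGG matches, and the ATP7A window held 1 CACGTG. Neither held the metal response core, and the matches did not overlap. The windows of ATP7B and STEAP3 also held 3 GGGCGG matches each, and these genes had log2 differences of 0.063 and 0.016 in KO guide 1. Without the replicate block, ATP7B, STEAP3, SLC31A1 and ATP7A were all not called there. Any link of the matches to the levels was not tested. Of 27305 promoters in the RefSeq table, 42.3% held GGGCGG, 6.49% held CACGTG and 24.7% held TGCACNC or TGCGCNC in the same window. Promoters were matched for 8 of the 10 members; SLC31A2 and SOD1 are named only. A match is a description of letters only.

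Among the copper chaperones, ATOX1 (chr5:151742822-151758631), which hands copper to ATP7A and ATP7B, had 774 and 1142 in control line 1, 683 and 1181 in control line 2, 629 and 831 in KO guide 1, and 1044 and 1402 in KO guide 2. Replicate 2 was higher than replicate 1 in each line, and within each replicate number KO guide 2 was the highest and KO guide 1 the lowest line. Without the block ATOX1 was not called between lines (KO guide 2 against KO guide 1, log2 difference 0.74, SE 0.29, limma adjusted p 0.167). With the replicate block it was called in 3 comparisons: KO guide 1 against the controls (-0.35, limma adjusted p 0.0353), KO guide 2 against the controls (0.40, 0.0167), and KO guide 2 against KO guide 1 (0.00141). The neighbours of ATOX1 had medians of -0.072 and -0.032 in the 2 lines against the control lines.

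CCS (chr11:66593185-66606019), the chaperone of SOD1, was the steadiest member, with 226 and 238 in control line 1, 241 and 249 in control line 2, 247 and 231 in KO guide 1, and 281 and 268 in KO guide 2. Its largest log2 difference among the tested contrasts was 0.20 (KO guide 2 against the control lines, SE 0.13, limma adjusted p 0.381), and it was called in 0 of the 6 comparisons, also with the block. SOD1 (chr21:31659693-31668931), the copper and zinc superoxide dismutase, had 6647 and 7453 in control line 1, 6492 and 8208 in control line 2, 4792 and 4916 in KO guide 1, and 6768 and 8577 in KO guide 2. Both libraries of KO guide 1 were below the 6 others, with a line mean of 4854 ± 87.6 against 7050.1 ± 569.5 and 7349.9 ± 1214 in the control lines (SD, n = 2 each). The difference of KO guide 1 from the control lines was -0.56 (SE 0.15, limma adjusted p 0.0551), and that of KO guide 2 from KO guide 1 was 0.65 (SE 0.17, limma adjusted p 0.0541). Both were called with the replicate block (0.00177 and 0.00191) and with libraries scaled to equal totals (0.0402 and 0.044). The call of KO guide 1 against the controls was also gained without replicate 1 of control line 2 (0.0417) or either replicate of KO guide 2 (0.0334 and 0.0331), and that between the KO-labelled lines without replicate 1 of KO guide 2 (0.0401). In KO guide 1 the 50 neighbours of SOD1 had a median of -0.41, with 36 of 50 below 0, and with gene-order windows the SOD1 difference was -0.19 (0.427).

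COX17 (chr3:119663975-119677406), which carries copper to the assembly factors of cytochrome c oxidase, had 615 and 650.0 in control line 1, 524 and 743 in control line 2, 482 and 565 in KO guide 1, and 364 and 571 in KO guide 2. Within each replicate number both KO-labelled lines were below both control lines, but the libraries overlapped across replicates. The difference of KO guide 2 from the control lines was -0.46 (SE 0.21, limma adjusted p 0.197), called with the replicate block (0.0184), while its 50 neighbours were lower by more (median -0.85) and the sign turned to 0.37 with gene-order windows (0.275). COMMD1 (chr2:61888391-62136058), a subunit of the complex that returns ATP7A and ATP7B from endosomes, had 287 and 346 in control line 1, 306 and 443 in control line 2, 242 and 285 in KO guide 1, and 221 and 329.6 in KO guide 2. As for COX17, both KO-labelled lines were below both control lines within each replicate number and overlapped with them across replicates. The share of all tested genes with this order was not counted. For COMMD1 the difference between KO-labelled and control libraries was -0.35 (SE 0.24, limma adjusted p 0.632), and -0.15 with gene-order windows (0.868). Its 50 neighbours had a median of -0.19 in that comparison, with 40 of 50 below 0. In KO guide 2 the COMMD1 difference was -0.33 beside a neighbour median of -0.32, and in KO guide 1 it was -0.37 beside one of -0.029.

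**Figure D3:**
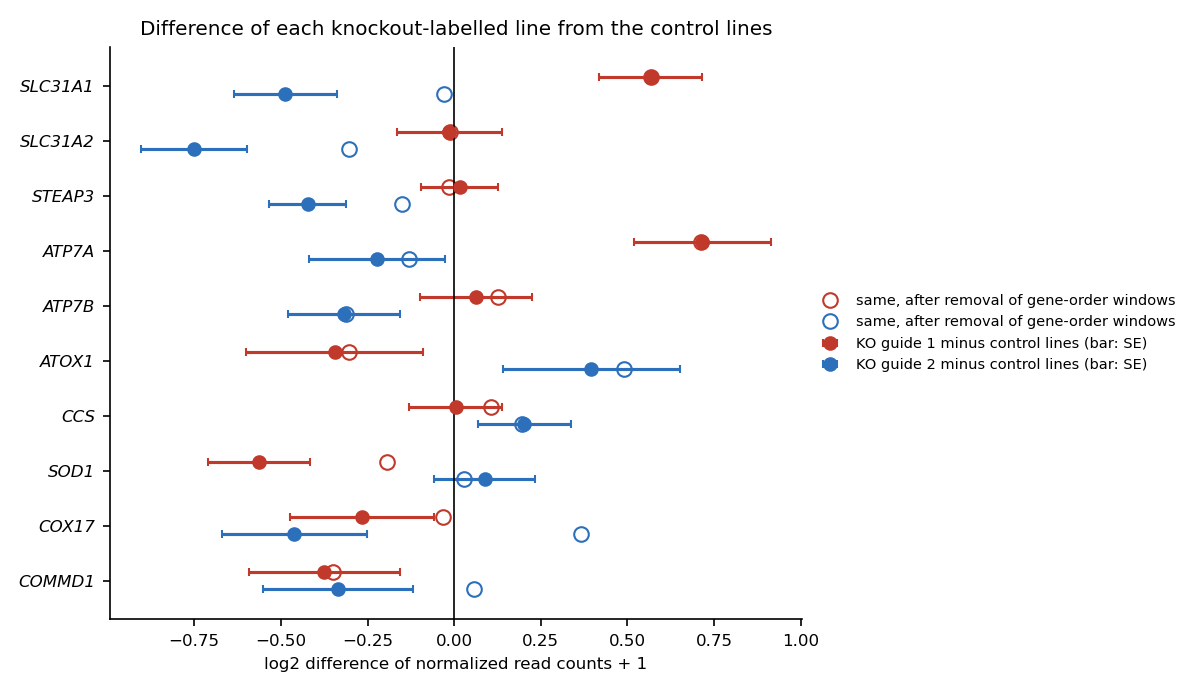
Log2 difference of each KO-labelled line from the mean of the control lines for each gene (filled points, with the standard error as a bar) and the same difference after removal of gene-order windows (open points). SLC31A1 is at 0.57 in KO guide 1 and -0.49 in KO guide 2, ATP7A is at 0.72 and -0.22, and the open points of SLC31A1, SLC31A2, STEAP3 and COX17 in KO guide 2 and of SOD1 in KO guide 1 are shifted towards or past 0.

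Counted over the members, the line labelled KO guide 1 had 0 of 10 called against the control lines, where 7.01% of all tested genes were called. With the replicate block it had 4 of 10 (SLC31A1 and ATP7A higher, ATOX1 and SOD1 lower), where 24.4% of all genes were. KO guide 2 had 2 of 10 against 11.2%, both lower, as were 6.67% of all genes. With the block it had 5 of 10 (ATOX1 higher; SLC31A1, SLC31A2, STEAP3 and COX17 lower) against 27.4%. Between the KO-labelled lines 3 of 10 were called against 6.94%, all 3 lower in KO guide 2, as were 4.53% of all genes. With the block the count was 6 of 10 (ATOX1 and SOD1 higher in KO guide 2; ATP7A, SLC31A1, SLC31A2 and STEAP3 lower) against 24.5%. The median log2 difference of the 10 members was -0.0046 in KO guide 1, -0.33 in KO guide 2 and -0.29 between them, where the medians over all genes were -0.00087, 0.0096 and -0.0054.

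Several members differed between replicate numbers, whose meaning the labels do not give. In replicate 2, ATOX1 rose (log2 difference 0.54, SE 0.088, limma adjusted p 0.00298), as did COMMD1 (log2 difference 0.40, SE 0.10, limma adjusted p 0.022) and COX17 (log2 difference 0.36, SE 0.10, limma adjusted p 0.0326), each higher in 4 of 4 lines. That is 3 of 10 members, where 17.6% of all tested genes were called, 8.97% as higher and 8.62% as lower, and 39.5% lay on the same side in all 4 lines. SOD1 and STEAP3 were also higher in replicate 2 of all 4 lines but were not called (log2 differences 0.22 and 0.11, limma adjusted p 0.079 and 0.325). ATP7A was lower in replicate 2 of 3 lines, with a log2 difference of -0.31 (SE 0.11, limma adjusted p 0.0738) over all 4. It was called with equal totals (-0.38, 0.029), with gene-order windows (-0.35, 0.034) and without KO guide 2 (0.0371). Without control line 2 or without KO guide 2, COX17 (0.158 and 0.133) and COMMD1 (0.12 and 0.0809) lost their call. ATOX1 was called in all 4 fits without a line. With equal totals or gene-order windows COX17 was no longer called (0.067 and 0.0681), so the count of 3 then held ATP7A in its place. The share of reads from mitochondrial genes moved with the replicate number in 3 of 4 lines: it was 4.67% and 6.35% in replicates 1 and 2 of control line 1, 6.39% and 9.05% in control line 2, 6.43% and 6.23% in KO guide 1, and 6.40% and 13.8% in KO guide 2. Its part in the differences was not tested.

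**Figure D4:**
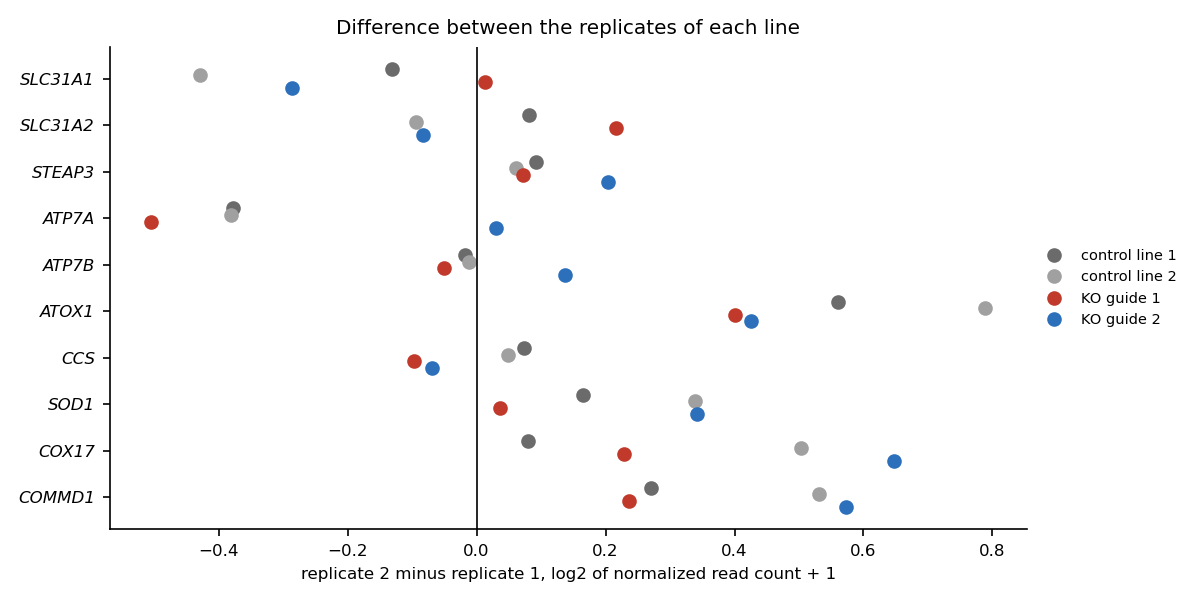
Log2 difference of replicate 2 from replicate 1 (horizontal axis) for each gene, with 1 point per line. All 4 points of ATOX1, SOD1, COX17, COMMD1 and STEAP3 lie above 0, and those of CCS and SLC31A2 lie on both sides.

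Other genes of copper handling were read from lists chosen by function. Of all tested genes 0.235% were called between KO-labelled and control libraries, so a count of 0 in a list is near that share. In KO guide 1 and KO guide 2, 7.01% and 11.2% of all tested genes were called against the control lines. Of 12 genes that deliver copper to or form cytochrome c oxidase, 0 were called between KO-labelled and control libraries, and SLC25A3, the mitochondrial carrier of phosphate and copper, fell in KO guide 2 (log2 difference -0.52, SE 0.11, limma adjusted p 0.018). Of 16 secreted and membrane copper enzymes, 10 were tested and 1 was called between KO-labelled and control libraries: LOXL3, a lysyl oxidase, at 31.3 and 34.2 in KO guide 1 and 21.7 and 31.4 in KO guide 2 against 241 ± 36.3 in the control libraries (SD, n = 4). LOX fell in KO guide 1 (log2 difference -2.27, SE 0.39, limma adjusted p 0.0136) and in KO guide 2 (log2 difference -1.48, SE 0.39, limma adjusted p 0.0442). LOXL2 fell in KO guide 1 (log2 difference -0.93, SE 0.16, limma adjusted p 0.0139), and CP, the ferroxidase ceruloplasmin, fell in KO guide 2 (log2 difference -1.44, SE 0.38, limma adjusted p 0.0441). Of 5 metalloreductases and other uptake genes, 3 were tested. STEAP2 rose in KO guide 1 (log2 difference 1.07, SE 0.22, limma adjusted p 0.0246), with 185 and 198 there against 92.8 ± 23.4 in the control libraries (SD, n = 4). STEAP2 and STEAP1 both fell in KO guide 2 relative to KO guide 1 (-1.46 and -1.23, limma adjusted p 0.0148 and 0.0287).

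Of 13 further subunits of the COMMD and CCC complexes, 0 were called between KO-labelled and control libraries, against 0.235% of all tested genes. Of the 13, 1 rose in KO guide 1 (CCDC93, log2 difference 0.51, limma adjusted p 0.0318) and 1 fell in KO guide 2 (COMMD2, log2 difference -0.78, limma adjusted p 0.00742, and -0.12 with gene-order windows). Among 13 genes that buffer or sense copper, 9 were tested, and PRNP, the gene of the copper-binding prion protein, fell in KO guide 1 (log2 difference -1.35, SE 0.19, limma adjusted p 0.00597) and in KO guide 2 (log2 difference -1.07, SE 0.19, limma adjusted p 0.0102). The metallothioneins MT2A and MT1X, small proteins that bind copper and zinc, rose in replicate 2, MT2A with 0.91 (SE 0.12, limma adjusted p 0.001) and MT1X with 0.88 (SE 0.16, limma adjusted p 0.00507); MT2A was at 5511 and 8963 in control line 1, 2969 and 4979 in control line 2, 2509 and 4029.9 in KO guide 1, and 2922 and 8252 in KO guide 2. MTF1, the metal-responsive factor that drives them, was not called in any comparison, also with the block. Of 11 genes of lipoylation and copper-induced death, with FDX1 and LIAS among them, 0 were called between KO-labelled and control libraries or, without the block, in KO guide 2. The shares of all tested genes were 0.235% and 11.2%. PDHB fell in KO guide 1 (log2 difference -0.57, SE 0.12, limma adjusted p 0.0282).

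On the side of platinum drugs, none of 7 tested carriers outside the copper pathway, 7 tested genes of glutathione and 17 genes of adduct repair and tolerance was called between KO-labelled and control libraries. In that comparison 0.235% of all tested genes were called. ABCC2, the efflux pump MRP2, had 2092 and 1477 in control line 1, 103 and 112 in control line 2, 3469.6 and 2469.8 in KO guide 1, and 2295 and 2572 in KO guide 2. Control line 2 was the low one, and ABCC2 fell there relative to control line 1 (log2 difference -4.02, SE 0.21, limma adjusted p 3.87e-05). Against the mean of the control lines ABCC2 rose in KO guide 1 (log2 difference 2.74, SE 0.18, limma adjusted p 0.000211) and in KO guide 2 (log2 difference 2.48, SE 0.18, limma adjusted p 0.000249). In KO guide 1 the proton-coupled efflux carriers SLC47A1 and SLC47A2 rose, with 2.12 (SE 0.50, limma adjusted p 0.0403) and 1.86 (SE 0.44, limma adjusted p 0.0414). LRRC8A, the obligatory subunit of the volume-regulated channel that can admit cisplatin, fell in KO guide 2 (log2 difference -0.63, SE 0.14, limma adjusted p 0.0242) and was at -0.28 (0.392) with gene-order windows. GGT1, the glutathione hydrolase, rose in KO guide 2 (log2 difference 2.02, SE 0.19, limma adjusted p 0.00099), from 47.4 ± 4.45 in the control libraries (SD, n = 4) to 209 and 182, and GSR, glutathione reductase, rose in KO guide 1 (log2 difference 0.85, SE 0.20, limma adjusted p 0.0383) and in KO guide 2 (log2 difference 0.75, SE 0.20, limma adjusted p 0.0425). Of the repair genes POLH, the polymerase that bypasses platinum adducts, fell in KO guide 2 (log2 difference -0.42, SE 0.12, limma adjusted p 0.0498). Of the line differences named from these lists, those of LOXL3, ABCC2 and GGT1, and COMMD2 in KO guide 2, were called in all 8 fits that left out 1 library. Those of PRNP were called in 7 of 8 fits, that of POLH in 0 (limma adjusted p 0.0773 to 0.151), and the others in 2 to 6.

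With the replicate block more genes of these lists were called against the control lines. PRNP was then called between KO-labelled and control libraries (-1.21, limma adjusted p 0.0391, and 0.0876 without the block), beside LOXL3. In KO guide 1 the block gave 5 higher and 1 lower of 7 genes of glutathione, with GCLC at 0.81 (0.000196). It gave 1 higher and 5 lower of 9 buffering genes, with MT1X at -0.94 (0.00519) and MT2A at -0.71 (0.00478), and 1 higher and 4 lower of 10 copper enzymes. Among the others in KO guide 1, it called 2 of 3 reductases higher, 2 of 13 COMMD and CCC subunits higher, 3 of 7 carriers higher, 2 higher and 2 lower of 17 repair genes, and 1 lower of 12 mitochondrial and of 11 lipoylation genes each. In KO guide 2 the block gave 1 higher (LIAS, 0.38, 0.0289) and 1 lower (PDHB, -0.37, 0.0222) of the 11 lipoylation genes. It also gave 3 higher of 7 glutathione genes, 2 higher and 2 lower of 7 carriers, 3 lower of 17 repair genes, 3 lower of 10 enzymes, 2 lower of 9 buffering genes, and 1 lower each of the reductases, the COMMD and CCC subunits and the mitochondrial genes. GCLC, MT1X, MT2A and LIAS were named after their values were seen. The shares of all tested genes called with the block were 24.4% in KO guide 1 and 27.4% in KO guide 2.

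As a description of likeness, the Pearson correlation of log2 values over the 8 libraries was computed between 4 members and 11212 genes with a mean of at least 50. Closest to SLC31A1 were CSF1 (0.995), ZDBF2 (0.986), MED13 (0.984), among the closest to ATP7A KIAA0319 (0.971), CLIP4 (0.959), closest to ATP7B MSX2 (0.961), EMC10 (0.96), TRIM2 (0.952) and closest to STEAP3 BPNT2 (0.992), GGH (0.985), P3H2 (0.979). The 8 points come from 4 lines and share their depth and replicate number.

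Strand use in counting is not given in the sources used here, and RefSeq places other genes over 9 of the 10 members, CCS being the exception. Among these are FKBP15 over SLC31A2, PGAM4 over ATP7A, CCT4 over COMMD1, and the antisense genes ATOX1-AS1 and STEAP3-AS1. Pseudogenes named after SOD1, COX17, SLC31A1 and ATP7B are annotated as well, so reads of these members are uncertain to that extent.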

How the data were processed

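PolyA RNA of A-498 cells was sequenced in 8 libraries. Per the file headers, reads were counted per gene with featureCounts, and per the submitters' processing notes fastp 0.23.2, HISAT2 2.2.1, featureCounts 2.0.1 and DESeq2 2.11.40.8 were used with GRCh38 (roles, annotation and strand not given in the sources used here). The deposited values are a signal, read counts divided by 1 factor per library: 100% of values were whole multiples of the value of 1 read (relative deviation under 1e-06), and depths of 15784890 to 22631588 reads were recovered from them. Limits cover counting error only. A RefSeq symbol was found for 27745 of 28395 identifiers.

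Tests used limma 3.58.1 under R 4.3.3 and took log2(value + 1), which understates the change of low genes. KO against control used duplicateCorrelation over lines (0.33), and single lines were contrasts of line means. Genes were called at a Benjamini-Hochberg adjusted p under 0.05 over the 14040 tested. Alternatives were edgeR 4.0.16 and DESeq2 1.42.0 on the recovered reads (186 and 850 genes called between KO and control, 33 with limma). In that comparison edgeR and DESeq2 took the libraries as independent, whereas limma modelled a correlation within lines. Further alternatives were other pseudocounts, filters and scalings, gene-order windows, and leaving out libraries. Counts over the 10 members under these settings, and other pseudocounts and equal totals for the exact test, were added after seeing the data. The functions were tested on simulated data. Replicate numbers came from the titles. Differences of replicate 2 from replicate 1 correlated across genes in all 6 pairs of lines (Pearson's r 0.285 to 0.501), above the limit of 0.1, so values with the replicate number as a block are given where they change a member's call, and as counts for the other lists. The 10 members and the other lists were chosen with earlier results of these data known. From the other lists, up to 3 called genes per comparison (2 between replicates) with the largest changes were named. MT-CO1, MT-CO2 and NDUFA4L2 were matched by other names in the table. Likeness was named for up to 3 genes per member, and 1 result of it is not reported here.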

Additional observations from a re-analysis of the deposited data

Results flagged for a closer look

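The KO-labelled lines differed in 3 members when both were set against the same 4 control libraries, by the test of KO guide 2 against KO guide 1. In that test 6.94% of all tested genes were called, 4.53% as lower. SLC31A1 differed by -1.05 (SE 0.17, limma adjusted p 0.0124) on the log2 scale, with both libraries of KO guide 1 above and both of KO guide 2 below all control libraries. ATP7A differed by -0.94 (SE 0.23, limma adjusted p 0.0446) and SLC31A2 by -0.74 (SE 0.18, limma adjusted p 0.043). With gene-order windows the limma adjusted p-values were 0.0573, 0.0921 and 0.387, with differences of -0.60, -0.84 and -0.29. With 1 library left out the differences ran from -1.20 to -0.91 for SLC31A1, -1.19 to -0.69 for ATP7A and -0.85 to -0.63 for SLC31A2. As given above, none of these calls held in all such fits. ANXA4 itself differed between these lines, at 236 and 234 normalized read counts in KO guide 1 and 3433 and 4142 in KO guide 2, and its part in the differences was not tested. No library of a member stood out from the 4 of its arm by Dixon's test. An arm joins different lines, so where they differ the values lie in pairs, and this test cannot flag a pair.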

How the results depend on the processing

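Between KO and control libraries 33 genes were called, 850 with DESeq2, 186 with edgeR, 71 without a filter and 0 with line means as the samples. With 1 library left out, 7 to 39 were called. A contrast of fitted line means, tested against the spread between libraries of the same line, called 1474. That contrast took no account of the spread between lines, and DESeq2 and edgeR took the libraries as independent. No member was called in any of these fits. Blocking on the replicate number, 3432 genes and 4 members were called in KO guide 1 (984 and 0 without it), 3851 and 5 in KO guide 2 (1573 and 2), 3442 and 6 for KO guide 2 against KO guide 1 (975 and 3), and 1752 and 1 between the control lines (299 and 0). The block changed no member's call between KO and control.

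With gene-order windows 643 genes and 1 member were called in KO guide 1, 815 and 0 in KO guide 2, 377 and 0 in KO guide 2 against KO guide 1, and 150 genes between the control lines. In KO guide 1 DESeq2 called 1440 genes and 3 members, and equal totals 808 and 1. In KO guide 2 edgeR called 1550 genes and 1 member. Without a filter 1361 genes and 1 member were called in KO guide 2, and 686 and 1 in KO guide 2 against KO guide 1. Between the control lines DESeq2 called 655 genes, and 183 were called without a filter, with 0 members in both.

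With 1 library left out, 148 to 1312 genes and 0 to 2 members were called in KO guide 1, 813 to 1363 and 0 to 2 in KO guide 2, 87 to 1003 and 0 to 2 for KO guide 2 against KO guide 1, and 43 to 410 genes between the control lines; a line left with 1 library was assumed to vary like the others. Between replicates, 2470 genes and 3 members were called, with 709 genes without control line 2, 1158 without KO guide 2, 1442 without control line 1 and 2274 without KO guide 1, and 1 to 3 members.

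Of the 60 differences of the 10 members in the 6 comparisons, 9 turned sign with gene-order windows, 3 with equal totals and 16 with a library or line left out. None of these was called without the block; with it 1 was, COX17 in KO guide 2, which turned with gene-order windows (0.37). Others that turned there were COX17 between KO and control (0.17), between the control lines (0.41) and in KO guide 2 against KO guide 1 (0.40), and COMMD1 in KO guide 2 (0.058). ANXA4 in KO guide 2 (0.33) and MT-CO1 between replicates (-0.0029) turned there too. Those that turned with a library left out included ATOX1 (-0.14 to 0.19) and SLC31A1 (-0.10 to 0.21) between KO and control, SOD1 in KO guide 2 (-0.083 to 0.26), COX17 (-0.52 to 0.13) and COMMD1 (-0.25 to 0.33) in KO guide 2 against KO guide 1, and ATOX1 between the control lines (-0.46 to 0.33); ANXA4 in KO guide 2 (-0.30 to 0.10) did as well. The causes were not tested. Depth limits ATP7B and SLC31A2 most, with as few as 83 and 93 reads in a library.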

Other observations

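Genes of glutathione and of the oxidative stress response differed between replicate numbers. Of 7 tested genes of this list, 5 fell in replicate 2 (limma, adjusted p under 0.05) and 0 rose. GCLC, the catalytic subunit of the rate-limiting enzyme of glutathione synthesis, had 1224 and 825 in control line 1, 1143 and 691 in control line 2, 2215 and 1231 in KO guide 1, and 1229 and 849.8 in KO guide 2 normalized read counts (log2 difference -0.67, SE 0.083, limma adjusted p 0.000702). GSR fell as well (log2 difference -0.40, SE 0.075, limma adjusted p 0.0053), and both were called in all 4 fits that left out a line. Over all tested genes 8.62% were called as lower.

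Several genes of metal and platinum handling had no reads at all. GSTP1, the glutathione S-transferase most often linked to platinum resistance, and the metallothioneins MT1E and MT1M had 0 reads in all 8 libraries. By counting error alone, a count of 0 allows up to 3 reads, or 2.35 to 3.62 normalized read counts per library. The annotation used for counting is not given, and whether reads of these genes were lost in mapping or counting was not tested. A count of 0 here therefore need not mean that the gene is silent. MT1G had at most 1 read and MT1F at most 4, while MT2A reached 8963 normalized read counts. The secreted superoxide dismutase SOD3 had at most 5 reads and the ferroxidase HEPH at most 7.

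CUTA, a gene named for copper tolerance in bacteria, was singled out after its values were seen. Its normalized read counts were 846 and 59.3 in control line 1, 312 and 332 in control line 2, 55.6 and 196 in KO guide 1, and 263 and 78.5 in KO guide 2, so that its replicates were close in control line 2 and apart in the other lines, in both directions. CUTA was called in none of the 6 comparisons (limma). The mean size of its log2 difference between replicates was 1.86, the rank 4 of 10223 genes with a mean of at least 100, where the median gene had 0.212.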
